A study of Mus musculus with 25 samples.

Results

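Hnf4a, Foxa1, Foxa2, Foxa3, Cebpa, Prox1, Onecut1 and Sox9 are the transcription factors by which the liver lineage is usually recognised, and they were followed here from cultured hepatic progenitors to the tumours those progenitors formed. The 8 genes were chosen by name and all of them were found among the 24984 genes of the count table. BMEL cells, a clonal line of bipotential progenitors from embryonic mouse liver, were compared as 3 cultures of BMEL WT (empty vector, no Ras), 3 of RasLOW and 3 of RasHIGH. RasLOW and RasHIGH are BMEL cells that express human H-Ras G12V from a bicistronic vector with Venus or mCherry, and they were separated by sorting on fluorescence into populations that overlap. After injection of such cells into the livers of athymic nude mice, which lack a normal T cell compartment, tumours were taken from the liver and the peritoneum of 4 mice, and fluorescent tumour cells and non-fluorescent stromal cells were sorted from each, giving 4 libraries of each of these 4 kinds. Which Ras population had been injected for these tumours is not given in the sample labels. The paper describes the sequenced tumour cells as Venus-positive. It made both populations with either label, but injected Venus-labelled RasHIGH or mCherry-labelled RasLOW cells where it measured Ras at both sites. The cultures and tumour cells derive from 1 parental clone. The stromal fraction was sorted by its lack of fluorescence, so it can hold tumour cells without fluorescence beside the host's cells. No group of normal liver was analysed here.

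HNF4A is a nuclear receptor that switches on most hepatocyte genes. The FOXA proteins are pioneer factors that open chromatin in the foregut endoderm and prepare it for liver genes, and C/EBP alpha, encoded by Cebpa, promotes the mature hepatocyte programme and also directs granulocytes and macrophages. PROX1 is needed for hepatoblasts to leave the liver bud and is the master regulator of lymphatic endothelium, ONECUT1 (HNF6) acts in hepatoblasts and in bile duct formation, and SOX9 marks the ductal plate and cholangiocytes. Hepatoblasts carry factors of both fates, and the balance between them is part of how hepatocytes and cholangiocytes separate.

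Total counts ranged from 20818989 to 51241336 per library, so that 3 counts correspond to 0.0576 to 0.141 CPM (counts scaled to a common library size), a limit that covers counting error only. Levels are CPM after TMM scaling, errors are SDs, and a difference was called when the adjusted p of edgeR's quasi-likelihood test was under 0.05. The study's methods call the 3 samples of a cell population independent, and the labels do not say how they were separated, so the p-values measure the spread between these libraries. Lane 3 carried 2 of the BMEL WT cultures (replicates 1 and 2), while the other control and all the Ras cultures shared another lane. RasHIGH replicate 1 stood apart from the other RasHIGH cultures in several members, among them Sox9 and Cebpa. The mouse Hras count does not identify the human transgene and checks nothing here: in CPM, its median was 82.9 for BMEL WT, 86.4 for RasLOW and 71.5 for RasHIGH.

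Positions of the 8 genes were taken from GENCODE M1 on mm9, the build that the study's methods name; the submitters' processing notes name mm8 and mm10 instead. Hnf4a occupies chromosome 2 from 163332544 to 163398646 on the plus strand and Foxa2 the same chromosome from 147868613 to 147872705 on the minus strand. Foxa1 lies on chromosome 12 (58641618 to 58647108, minus), Foxa3 on chromosome 7 (19598631 to 19608887, minus) and Cebpa on chromosome 7 (35904312 to 35906945, plus). Prox1 lies on chromosome 1 (191945660 to 191994559, minus), Onecut1 on chromosome 9 (74709728 to 74737591, plus) and Sox9 on chromosome 11 (112643538 to 112649074, plus). Onecut1 shares 813 bases of exon with Gm16551, a transcript on the same strand that is also listed in the table, and Prox1 shares 133 bases with an antisense transcript, Gm17566. The strand setting of the counting is not given in the sources used here, so reads in those stretches cannot be assigned with certainty.

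The factors are known to regulate one another, and promoter windows were read to see which core motifs they hold. RefSeq windows on GRCm38.p6, from 250 bases before to 50 bases after a gene start, were matched for 7 of the 8 members (11 windows); Sox9 had no entry. Both strands were searched for 6 cores of 7 letters: CAAAGTC for HNF4, TGTTTAC for FOXA, TATTGAT for HNF6, TTGCGCA for C/EBP, TGACTCA for AP-1 and CGGAAGT for ETS. Of all 32851 windows, 4.44% held the HNF4 core, 3.65% the FOXA core, 2.05% the HNF6 core, 2.02% the C/EBP core, 5.202% the AP-1 core and 6.42% the ETS core. Among the members, the HNF6 core was found in the upstream window of Hnf4a, where it begins 59 bases before the start, and in 1 of the 3 windows of Foxa2, where it begins 214 bases before the start. The FOXA core was found in Foxa1 itself, beginning 141 bases before the start, and the other 3 cores and the HNF4 core were not in these letters. The windows with a core are shown with that core in capitals, together with the downstream start of Hnf4a, which holds none of the 6 and is the start known from adult hepatocytes, the upstream one being known from pancreas and immature liver cells. None of these windows overlaps another.
Hnf4a, upstream start, chr2:163506607-163506906, plus strand: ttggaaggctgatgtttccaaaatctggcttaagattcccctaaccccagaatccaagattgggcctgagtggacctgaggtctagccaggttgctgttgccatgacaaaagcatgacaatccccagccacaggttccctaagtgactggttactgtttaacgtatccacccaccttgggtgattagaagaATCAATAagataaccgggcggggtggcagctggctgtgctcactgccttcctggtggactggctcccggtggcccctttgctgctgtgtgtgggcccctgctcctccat
Hnf4a, downstream start, chr2:163546905-163547204, plus strand: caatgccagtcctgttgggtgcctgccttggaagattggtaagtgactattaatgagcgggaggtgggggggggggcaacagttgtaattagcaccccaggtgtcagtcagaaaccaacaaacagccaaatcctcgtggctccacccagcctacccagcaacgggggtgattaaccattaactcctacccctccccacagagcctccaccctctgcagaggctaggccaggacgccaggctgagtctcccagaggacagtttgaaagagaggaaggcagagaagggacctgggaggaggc
Foxa2, chr2:148046920-148047219, minus strand: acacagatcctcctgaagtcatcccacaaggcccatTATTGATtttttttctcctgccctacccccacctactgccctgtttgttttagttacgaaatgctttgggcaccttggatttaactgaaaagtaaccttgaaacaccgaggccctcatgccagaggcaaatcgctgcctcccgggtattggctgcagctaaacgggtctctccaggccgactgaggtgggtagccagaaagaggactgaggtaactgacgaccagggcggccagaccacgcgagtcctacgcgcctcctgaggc
Foxa1, chr12:57546062-57546361, minus strand: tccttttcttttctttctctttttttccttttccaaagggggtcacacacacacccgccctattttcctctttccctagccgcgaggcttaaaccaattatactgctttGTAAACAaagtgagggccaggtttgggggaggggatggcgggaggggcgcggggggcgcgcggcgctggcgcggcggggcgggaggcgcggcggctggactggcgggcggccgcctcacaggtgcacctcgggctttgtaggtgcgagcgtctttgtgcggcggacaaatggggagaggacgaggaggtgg
A match is a description of the letters and not evidence of binding, and the counts were made per gene, so they do not tell the starts of Hnf4a apart.

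In BMEL WT the members spanned from abundant to nearly silent. Per length (RPKM, CPM per kilobase of exon) Hnf4a came first at 80.2 ± 10.7, followed by Foxa2 at 38.1 ± 2.30 and Sox9 at 21.2 ± 2.84 (SD, n = 3 for each). Foxa1 at 5.18 ± 0.960 and Cebpa at 4.78 ± 2.44 RPKM overlapped, and their order differed between the 3 libraries. Prox1 was lower still at 1.30 ± 0.647 RPKM, Foxa3 followed at 0.404 ± 0.277 and Onecut1 was last at 0.0944 ± 0.106. Hnf4a held the first place in each of the 9 culture libraries. In each of the 8 tumour cell libraries the first place was taken by Sox9, with means of 116.0 ± 23.0 RPKM in liver and 107.8 ± 17.01 RPKM in peritoneal tumours (n = 4 each) against 44.3 ± 3.94 and 62.7 ± 8.46 for Hnf4a. In the 8 stromal libraries Cebpa came first, at 49.2 ± 2.79 and 51.6 ± 8.73 RPKM.

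**Figure D1:**
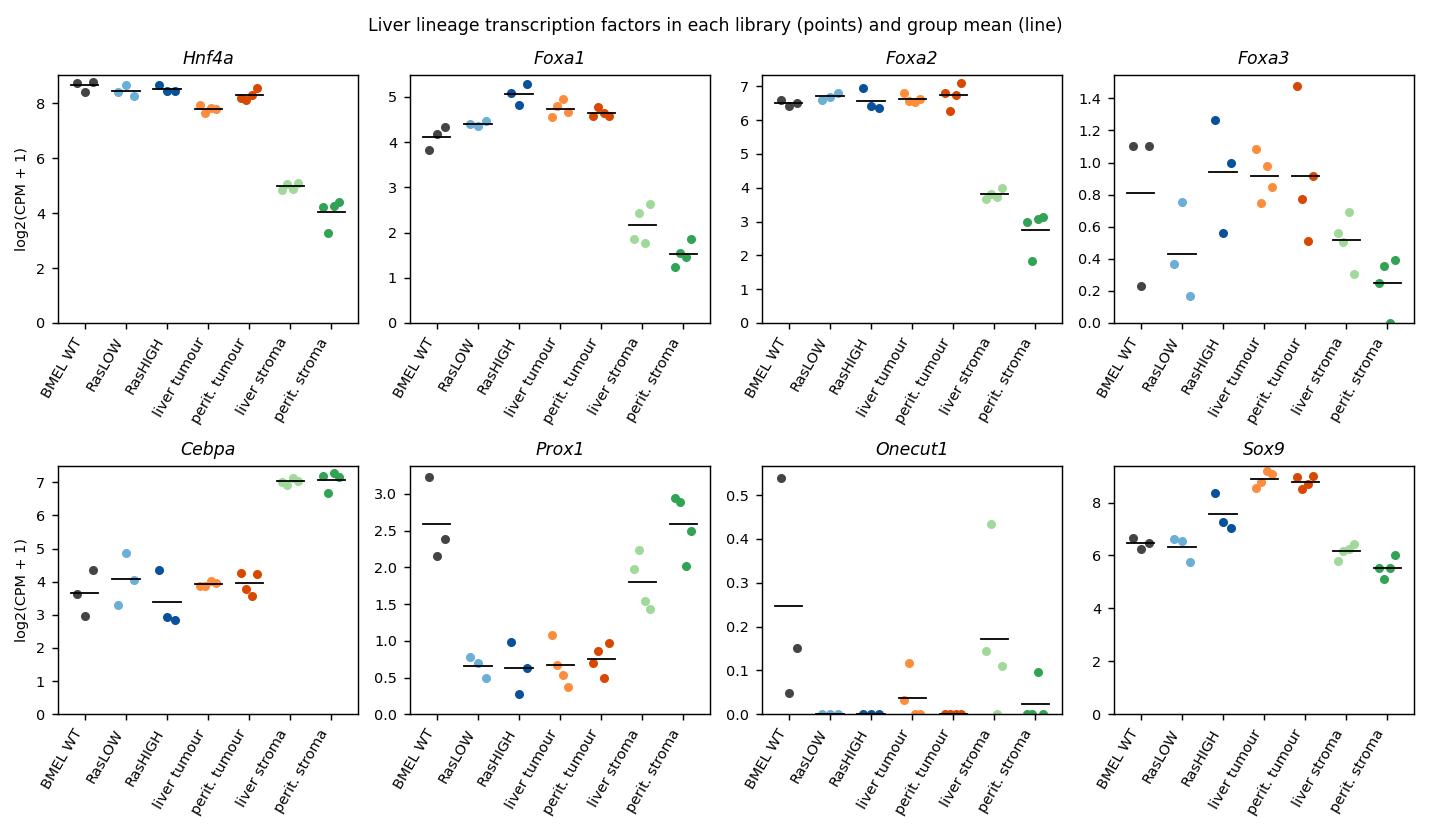
Level of each of the 8 factors, as log2 of CPM plus 1 on the vertical axis, with 1 point per library and a line at the group mean for 3 cultures each of BMEL WT, RasLOW and RasHIGH and 4 libraries each of tumour and stromal cells. Hnf4a and Foxa2 were high in cultures and tumour cells, Sox9 was highest in tumour cells, Prox1 was low in Ras cultures and tumour cells, and Cebpa was highest in stroma; the vertical scales differ between panels.

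The first question was whether the liver lineage factors are kept when BMEL cells receive Ras. In RasLOW cells 1 of the 7 members that passed the filter on low counts was called, Prox1, which fell, while 5.96% of the 12307 genes tested were called. Prox1 was at 8.41, 3.44 and 4.22 CPM in the BMEL WT cultures and at 0.719, 0.623 and 0.405 CPM in the RasLOW cultures. All the RasLOW cultures lay below all the controls, in a comparison where the groups of 28.5% of genes did not overlap, and the level was 9.34-fold lower (log2 fold change -3.22, SE 0.47, adjusted p = 0.0135). Without RasLOW replicate 3 the adjusted p was 0.0606, at a log2 fold change of -3.02. With the sequencing lane as a term, which leaves a single BMEL WT culture to compare within a lane, it was -2.88 with an adjusted p of 0.176.

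Hnf4a was measured at 431, 340 and 436 CPM in BMEL WT and at 339, 407 and 304 CPM in RasLOW. The cultures overlapped and the log2 fold change of -0.23 had a 95% interval from -0.65 to 0.18. Foxa2 was at 96.1, 85.3 and 89.5 CPM in BMEL WT and at 95.7, 102 and 111 CPM in RasLOW (log2 fold change 0.16, interval -0.14 to 0.46). For Foxa1 the RasLOW values of 20.0, 19.4 and 20.99 CPM lay above the control values of 13.2, 17.2 and 19.2 CPM. That difference was not called (log2 fold change 0.25, adjusted p = 0.499). Sox9 was at 99.2, 75.7 and 87.8 CPM in BMEL WT and at 98.0, 93.1 and 53.4 CPM in RasLOW, with an interval of the log2 fold change from -0.70 to 0.42. Cebpa varied most between cultures of 1 kind, from 6.89 to 19.6 CPM in BMEL WT and from 8.84 to 28.3 CPM in RasLOW, and its interval ran from -0.73 to 1.64. Foxa3 rested on 5 to 33 counts per library in BMEL WT and 3 to 21 in RasLOW, and its interval was correspondingly wide (-3.11 to 0.79).

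In RasHIGH cells 3 of the 7 tested members were called against BMEL WT, 2 higher and 1 lower, where 22.6% of 12331 genes were called. Prox1 was again low, at 0.985, 0.215 and 0.541 CPM, below every control culture and 9.37-fold lower (log2 fold change -3.23, SE 0.59, adjusted p = 0.00917). Without RasHIGH replicate 1, the highest of the RasHIGH cultures, the log2 fold change of Prox1 was -3.84 (adjusted p = 0.00436). Foxa1 was higher, at 33.1, 27.2 and 38.1 CPM, with no overlap with BMEL WT, as for 42.9% of genes (1.94-fold, log2 fold change 0.95, SE 0.20, adjusted p = 0.0162). Leaving out BMEL WT replicate 1 or 2 brought its adjusted p to 0.0518 or 0.0603. Sox9 was higher as well, at 330, 154 and 129 CPM, all above the highest control value (2.26-fold, log2 fold change 1.17, SE 0.34, adjusted p = 0.0471). RasHIGH replicate 1 lay at more than the other RasHIGH cultures added together. Without that culture the log2 fold change of Sox9 was 0.67 with an adjusted p of 0.0148, and leaving out any 1 of the BMEL WT cultures gave adjusted p-values from 0.101 to 0.153; without RasHIGH replicate 2 it was 0.0635. With the lane as a term none of the 3 members was called: the log2 fold changes were -2.89 for Prox1, 0.73 for Foxa1 and 1.17 for Sox9, with adjusted p-values of 0.0973, 0.276 and 0.342.

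The other 4 tested members, Hnf4a, Foxa2, Foxa3 and Cebpa, were not called in RasHIGH. Hnf4a was at 405, 346 and 346 CPM and its log2 fold change against BMEL WT was -0.18 (interval -0.52 to 0.16). Foxa2 was at 123, 84.5 and 81.1 CPM (interval -0.36 to 0.46), and without RasHIGH replicate 1 its log2 fold change was -0.14. Cebpa was at 19.5, 6.67 and 6.18 CPM, with RasHIGH replicate 1 again apart, its interval ran from -1.53 to 0.99, and without that culture its log2 fold change was -0.99 (adjusted p = 0.113). Foxa3, the FOXA member most tied to mature hepatocytes, was at 1.40, 0.474 and 0.992 CPM.

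Onecut1 was too low to be tested. The BMEL WT cultures held 13, 1 and 3 counts, while all 6 Ras cultures held 0 counts, which allows up to 3 counts in each. Its relative Onecut2, which binds a similar sequence, was the abundant member of that pair: the BMEL WT cultures held 116, 90.6 and 147 CPM of it, the RasLOW cultures 89.9, 295 and 157 CPM and the RasHIGH cultures 514, 246 and 188 CPM. Onecut2 was called higher in RasHIGH than in BMEL WT (log2 fold change 1.38, SE 0.38, adjusted p = 0.0386) and not in RasLOW (0.60, adjusted p = 0.480).

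**Figure D2:**
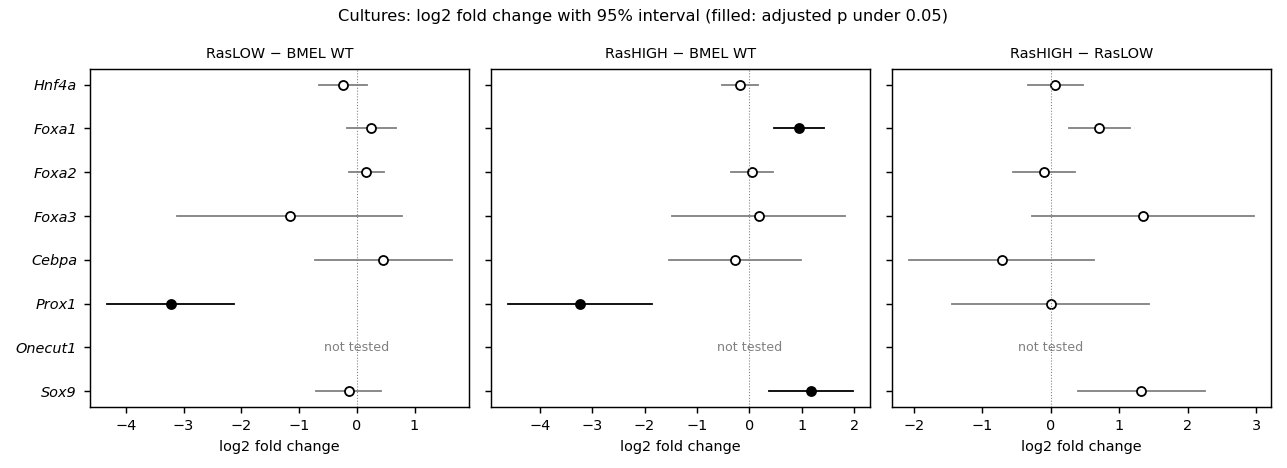
Log2 fold change of each factor between pairs of culture groups on the horizontal axis, with its 95% interval from the quasi-likelihood fit; filled points had an adjusted p under 0.05. Against BMEL WT, Prox1 lay at -3.22 for RasLOW and at -3.23 for RasHIGH, Foxa1 and Sox9 were filled only for RasHIGH against BMEL WT, and Onecut1 could not be tested.

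RasHIGH and RasLOW cells were then compared with each other, to ask whether the dose of Ras separates them. By edgeR's quasi-likelihood test 0 of the 7 tested members were called, and 0.0752% of 11962 genes (9 genes) were. At an unadjusted p under 0.05, 9.78% of genes and 2 members passed. These were Foxa1 and Sox9. Foxa1 was 1.64-fold higher in RasHIGH (log2 fold change 0.71, SE 0.19, adjusted p = 0.235). Sox9 was 2.50-fold higher (log2 fold change 1.32, SE 0.39, adjusted p = 0.291). The groups of 15.7% of genes did not overlap, in either direction, and for Foxa1 and Sox9 all RasHIGH cultures lay above the RasLOW cultures. DESeq2 called both, with adjusted p-values of 0.0350 and 0.0455, and over the alternatives the adjusted p reached 0.632 for Foxa1 and 0.308 for Sox9. All 25 libraries in one fit called Sox9 alone (adjusted p = 0.00902). A block of neighbouring library identifiers, with 2 pairs, called Sox9 (log2 fold change 1.66, adjusted p = 2.33e-06) and Cebpa (-0.87, adjusted p = 0.0160), and 1514 genes in all. The interval for Sox9 ran from 0.39 to 2.25, and without RasHIGH replicate 1 its log2 fold change was 0.81. Prox1 was at the same low level in both populations, with a log2 fold change of -0.001 and an interval from -1.44 to 1.44. For Hnf4a the interval ran from -0.34 to 0.47 and for Foxa2 from -0.56 to 0.35.

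Other liver genes put these values in context. Of 18 further liver transcription factors, none of the 15 tested was called in RasLOW against BMEL WT, and in RasHIGH 4 rose and 1 fell. Among them were Onecut2, Nr1h4, a bile acid receptor (log2 fold change 0.77, adjusted p = 0.0422), Creb3l3, a regulator of hepatic lipid and acute phase genes (2.81, adjusted p = 0.0230), and Tbx3, which fell (-2.89, adjusted p = 0.0398). The median log2 fold change of the 15 was -0.05 in RasHIGH against BMEL WT, beside -0.02 for all genes tested. Of 26 hepatocyte genes, 5 passed the filter in RasHIGH against BMEL WT and 2 of these fell: Apoa1, from 28.0 to 1.43 CPM (log2 fold change -4.31, adjusted p = 0.00675), and Apob, from 2323 to 897 CPM (-1.41, adjusted p = 0.0445). In RasLOW 6 were tested and 1 was called, Apoa1, which was already lower at 3.16 CPM (log2 fold change -3.16, adjusted p = 0.0322). Albumin was at 0.172 to 9.67 CPM in BMEL WT and listed at 0 in the RasHIGH cultures. Of 10 hepatoblast genes 4 were tested, 1 rose and 1 fell in RasHIGH, and none was called in RasLOW. Hmga2, a chromatin protein of fetal tissues, rose from 658 to 1752 CPM (log2 fold change 1.37, adjusted p = 0.00284), and Afp, which encodes the classical hepatoblast product alpha-fetoprotein, fell from 11.3 to 2.55 CPM (-2.19, adjusted p = 0.0101). Of 16 cholangiocyte genes, 12 were tested, and 4 rose and 3 fell in RasHIGH. Among them were Krt19 (log2 fold change 0.56, adjusted p = 0.0475), Anxa13 (2.50, adjusted p = 0.00129) and Bicc1 (-3.00, adjusted p = 0.000158). In RasLOW 12 were tested and 1 rose, Cftr (log2 fold change 2.01, adjusted p = 0.0134). Bicc1 (-2.16, adjusted p = 0.0326) and Pkhd1 (-1.44, adjusted p = 0.0260) fell in RasLOW.

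Mesothelial markers moved in the same comparisons as Prox1. Of the 5, 4 were tested and all 4 fell in RasHIGH against BMEL WT, including Wt1, from 12.7 to 0.168 CPM, and in RasLOW 1 of 4, Wt1, fell (log2 fold change -3.39, adjusted p = 0.0312). The summed level of the 5 spanned 1236 to 1467 CPM for the controls, 967 to 2695 CPM for RasLOW and 589 to 812 CPM for RasHIGH, and none of them was at 0 in all cultures of a group. These sums join unlike markers. Wt1 and Upk3b averaged 12.7 and 15.2 CPM in BMEL WT, and 3 of the 5 averaged under 1 CPM in RasHIGH. Msln, another of the 5, averaged 252 CPM in liver tumour cells and 56.5 CPM in liver stroma. Of the 6 lymphatic markers, Pdpn, Ccl21a and Mmrn1 were at 0 in every culture, and 5 averaged under 1 CPM in each culture group. The list was not silent even so. Its summed level had a median of 63.6 CPM for the controls, against 47.6 (RasLOW) and 50.6 CPM (RasHIGH). Most of that level therefore came from 1 marker. The part of mesothelial-like cells in the Prox1 values was not tested.

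The tumour cells were set against cultured RasHIGH cells, to see what growth in the animal left of the liver factors. The RasHIGH cultures shared no lane with any tumour library, and dissociation and sorting were applied to the tumours only, so the effect of growth in the animal cannot be told apart from those steps. Of the 7 tested members 2 were called in liver tumours, Sox9 higher and Hnf4a lower, where 45.1% of 12971 genes were called. In peritoneal tumours 2 were called, Sox9 higher and Foxa1 lower, where 37.9% of 12791 genes were called. Both comparisons share the RasHIGH cultures.

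Sox9 stood at 370, 435, 580 and 534 CPM in liver tumour cells and at 496, 363, 413 and 512 CPM in peritoneal tumour cells. All 8 values lay above the highest RasHIGH culture. The groups of 48.8% of genes in liver and 44.9% in peritoneal tumours did not overlap with RasHIGH. The level was 2.35-fold higher than in RasHIGH in liver tumours (log2 fold change 1.24, SE 0.32, adjusted p = 0.0130) and 2.21-fold higher in peritoneal tumours (1.14, SE 0.32, adjusted p = 0.0243). Without RasHIGH replicate 1 the log2 fold changes were 1.76 and 1.67, and without RasHIGH replicate 2 the adjusted p-values were 0.0529 and 0.0916; without RasHIGH replicate 3 they were 0.0380 and 0.0726. Stromal cells of the same tumours held less Sox9 than the tumour cells, 71.3 ± 13.1 CPM in liver and 46.4 ± 12.2 CPM in the peritoneum (n = 4).

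Hnf4a was at 247, 198, 224 and 220 CPM in liver tumour cells, below all RasHIGH cultures and 1.64-fold lower (log2 fold change -0.72, SE 0.11, adjusted p = 0.00129). In peritoneal tumour cells it was at 292, 276, 316 and 373 CPM, which overlapped the RasHIGH cultures (-0.20, interval -0.50 to 0.10). In no tumour library did it fall under 198 CPM, and its per-length level came directly after Sox9 or after Sox9 and Foxa2. The ratio of Sox9 to Hnf4a, both in CPM, does not depend on scaling of the library: its median was 0.222 in BMEL WT, 0.229 in RasLOW, 0.444 in RasHIGH, 2.31 in liver and 1.34 in peritoneal tumour cells. It ranged from 0.176 to 0.289 over the 6 BMEL WT and RasLOW cultures, from 0.372 to 0.815 in RasHIGH and from 1.30 to 2.59 in tumour cells. In stromal cells it ranged from 1.98 to 2.61 in liver and from 2.43 to 3.82 in the peritoneum. A high ratio was therefore not particular to tumour cells.

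**Figure D3:**
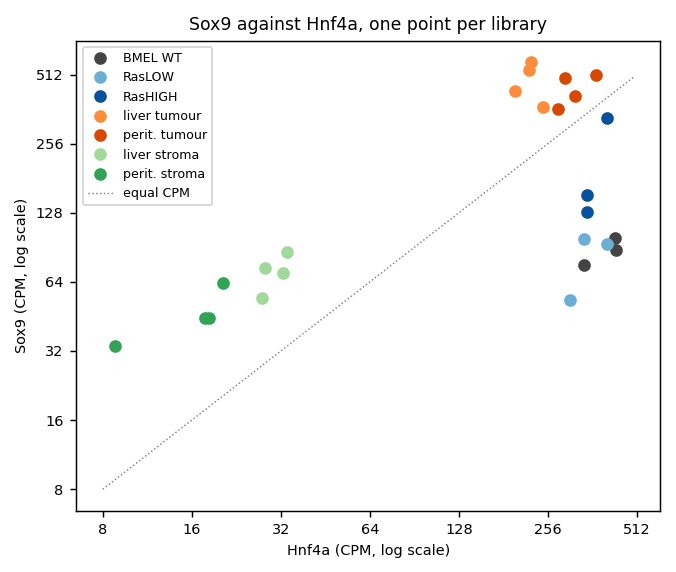
Sox9 against Hnf4a, both in CPM on log axes, with 1 point per library coloured by group and a dotted line where they are equal. Cultures lay below the line with ratios up to 0.815, tumour cells above it with ratios from 1.30 to 2.59, and stromal libraries above it at a level several times lower for both genes.

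Foxa2 was not called against RasHIGH in either tumour. It was at 110, 94.1, 91.8 and 97.9 CPM in liver tumours and at 111, 76.9, 106 and 135 CPM in peritoneal tumours, with intervals against RasHIGH from -0.33 to 0.40 and from -0.32 to 0.67. Foxa1 was at 22.4 to 30.0 CPM in liver and 22.9 to 26.4 CPM in peritoneal tumours. The peritoneal value was 1.35-fold lower than in RasHIGH (log2 fold change -0.43, SE 0.14, adjusted p = 0.0425) and lost its call when any 1 of the peritoneal libraries or RasHIGH replicate 3 was left out (adjusted p 0.0816 to 0.140). Foxa3 stayed low, at 0.678 to 1.12 and 0.422 to 1.78 CPM.

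Prox1 did not return in the tumours. It was at 1.12, 0.593, 0.454 and 0.288 CPM in liver and at 0.624, 0.815, 0.403 and 0.960 CPM in peritoneal tumour cells, with intervals against RasHIGH from -1.23 to 1.41 and from -0.99 to 1.53. Onecut1 had 1 and 3 counts in liver tumour libraries 1 and 2 and 0 in the other 6 tumour libraries, against 424 to 518 CPM of Onecut2 in liver and 391 to 567 CPM in peritoneal tumours. Afp was higher than in RasHIGH at both sites (log2 fold changes 1.93 and 2.08, adjusted p-values 0.000141 and 0.00129), as was H19, an imprinted fetal RNA, so that 2 of 5 tested hepatoblast genes were higher in liver tumours and 2 of 4 in peritoneal tumours. H19 was low even so, at 0.543 CPM in liver tumour cells against 53.2 CPM in liver stroma. The part of stromal cells in its value was not tested. Of the hepatocyte genes 9 of 14 tested were higher and 2 lower in liver tumours, and 1 of 6 was higher and 2 lower in peritoneal tumours. Alb and Fga, at 15.4 and 4.43 CPM in liver tumour cells, were listed at 0 in RasHIGH. Hepatocyte genes at 0 in RasHIGH could pass the filter only through the tumour libraries, so they could only come out higher. Apob was lower at both sites (-3.01 and -1.56, adjusted p-values 0.000125 and 0.00787). Of 13 further liver transcription factors tested, 1 was higher and 4 lower in liver tumours, and 1 was higher and 2 lower in peritoneal tumours. Xbp1, a factor of secretory cells, was the higher one at both sites (0.67 and 0.63, adjusted p-values 0.0291 and 0.0389), and Rxra, the partner of several hepatic nuclear receptors, was lower at both (-1.06 and -0.94).

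Cebpa was not called in either tumour, at 13.6, 13.5, 15.4 and 14.6 CPM in liver and 18.1, 12.7, 10.8 and 17.8 CPM in peritoneal tumours. This rested on RasHIGH replicate 1. Without it the log2 fold changes were 1.15 and 1.22, with adjusted p-values of 9.22e-05 and 0.00528. Myeloid cells express Cebpa, and myeloid markers moved the same way: 9 of the 11 tested of 12 were higher in liver tumour cells than in RasHIGH, with a summed level of 34.5 to 47.1 CPM against 6.29 to 11.4 CPM, and 8 of 11 in peritoneal tumour cells, with a summed level of 25.7 to 259 CPM. In the stromal libraries the same 12 genes summed to 5027 CPM or more. Adgre1, Lyz2, Spi1 and Cebpe were at 0 in all RasHIGH cultures, and none was at 0 in all libraries of either tumour group. Such genes could pass the filter only through the tumour libraries, so they could only come out higher. The part of myeloid cells in the Cebpa value was not tested.

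**Figure D4:**
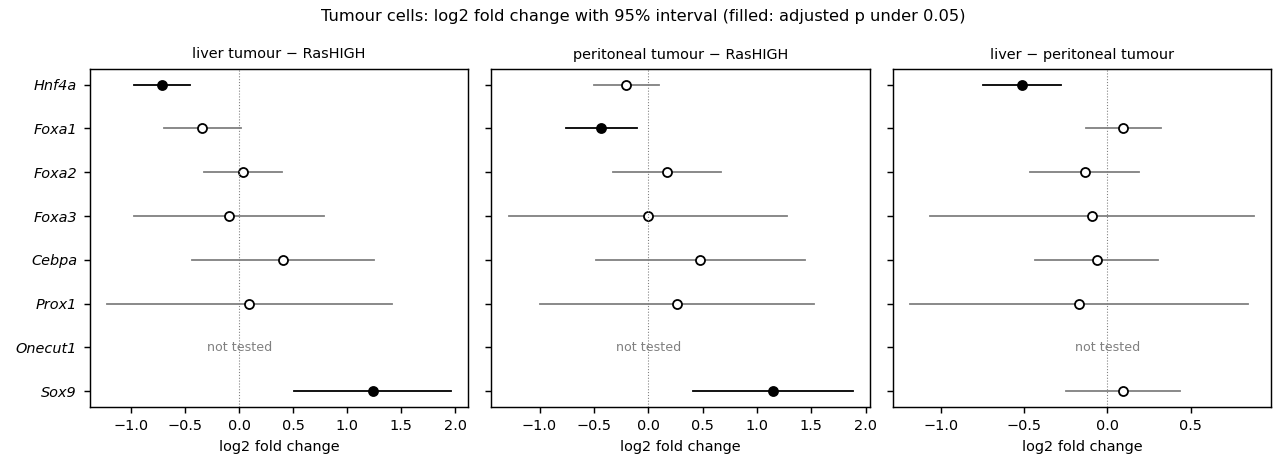
Log2 fold change of each factor in tumour cells against cultured RasHIGH cells and between tumour sites, with its 95% interval; filled points had an adjusted p under 0.05. Sox9 lay above 0 in both tumours against RasHIGH, Hnf4a below 0 in liver tumours against both RasHIGH and peritoneal tumours.

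Liver and peritoneal tumours of the same mice were compared next, since the growth sites differ. Of the 7 tested members 1 was called, Hnf4a, where 3.2% of 13074 genes were. All 4 liver values of Hnf4a lay below all 4 peritoneal values, as did 1 group against the other in 12.1% of genes, and the level was 1.42-fold lower in liver tumour cells (log2 fold change -0.51, SE 0.11, adjusted p = 0.0330). With the mouse as a block the log2 fold change was -0.50 with an adjusted p of 0.0667, and with the lane as a term -0.51 with 0.0653. It was also lost on leaving out liver tumour replicate 2, 3 or 4 or peritoneal tumour replicate 3 (adjusted p 0.0687 to 0.118). The intervals of the other members were -0.25 to 0.44 for Sox9, -0.13 to 0.32 for Foxa1, -0.46 to 0.19 for Foxa2, -0.43 to 0.30 for Cebpa, -1.06 to 0.88 for Foxa3 and -1.18 to 0.84 for Prox1. None of the 14 further liver transcription factors tested was called between the sites.

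Markers of other cells also differed between these fractions. Of 26 hepatocyte genes 13 were tested, 5 were higher in liver tumour cells (Alb, Fga, Fgb, Fgg and Ahsg) and 1, Apob, was lower (111.5 against 301 CPM). Alb was at 15.4 ± 12.9 CPM in liver and 0.226 ± 0.360 CPM in peritoneal tumour cells. Fga and Fgg were at 0 in all 4 peritoneal libraries, so they passed the filter only through liver tumour cells and could only come out higher. Without Trf and Apob, which BMEL cells express, the hepatocyte genes summed to 19.02 to 79.4 CPM in liver and 4.67 to 18.2 CPM in peritoneal tumour cells. Fibroblast markers went the other way, with sums of 41.1 to 62.4 and 213 to 1464 CPM. Hnf4a was lower in the liver fraction, in which 5 hepatocyte genes were higher, Apob was lower and the fibroblast sum was lower. The part of other cells in this difference was not tested.

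Tumour and stromal cells of each site were then compared. Against stromal cells of the same site all 7 tested members were called at both sites, 5 higher in tumour cells and 2 lower, where 77.8% of 14620 genes in liver and 76.6% of 14584 genes in the peritoneum were called. Hnf4a was 7.14-fold higher in liver tumour cells than in liver stroma (log2 fold change 2.84, SE 0.10) and 20.2-fold higher in the peritoneum (4.33, SE 0.27). Foxa2 was 7.44-fold and 18.1-fold higher, Foxa1 7.04-fold and 13.2-fold, and Sox9 6.62-fold and 10.0-fold, with adjusted p-values of 1.17e-05 or smaller. Foxa3 was 1.98-fold and 5.09-fold higher (adjusted p = 0.0201 and 0.0176). Without peritoneal tumour replicate 1 its log2 fold change in the peritoneum was 1.76 in place of 2.35, and in liver it lost its call without liver tumour replicate 1 or 3 or liver stromal replicate 4 (adjusted p 0.0514 to 0.0620).

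As a share of the tumour cell level in the same mouse, liver stroma held 11.2 to 16.5% of Hnf4a, 10.7 to 15.4% of Foxa2, 7.98 to 21.3% of Foxa1 and 12.7 to 16.2% of Sox9. Krt19, a keratin of the BMEL tumour cells, was at 12.9 to 14.8% there. In peritoneal stroma the shares were 3.18 to 6.07% for Hnf4a, 3.29 to 7.04% for Foxa2, 5.86 to 11.3% for Foxa1, 8.98 to 12.3% for Sox9 and 5.77 to 7.84% for Krt19. The shares of Hnf4a, Foxa2 and Foxa1 overlapped those of Krt19 at each site, but within mice in the peritoneum Hnf4a lay below Krt19 and Sox9 above it in all 4. How much of these factors in stroma came from tumour cells without fluorescence was not tested.

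**Figure D5:**
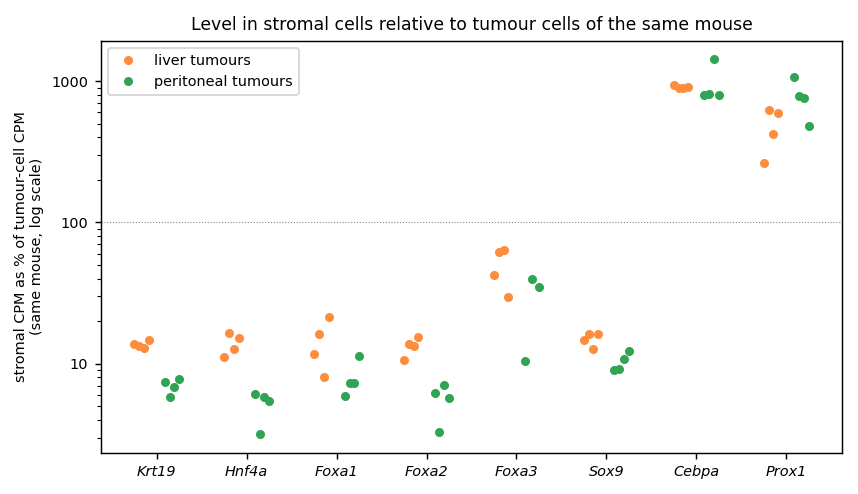
Level in stromal cells as a percentage of that in tumour cells of the same mouse, on a log axis, with 1 point per mouse and site; Krt19 is shown beside the factors, and values of 0 are left out. Hnf4a, Foxa1, Foxa2 and Sox9 lay near Krt19, with medians of 13.6 to 15.4% in liver, while Cebpa and Prox1 lay above the tumour cell level in every mouse.

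Cebpa and Prox1 were the members that were higher in stroma. Cebpa was at 128, 121, 138 and 132 CPM in liver stroma and 145, 102, 154 and 143 CPM in peritoneal stroma, 9.25-fold and 8.77-fold above the tumour cells (log2 fold changes of tumour against stroma -3.21, SE 0.09, and -3.13, SE 0.21). All 12 myeloid markers were higher in stroma at both sites, among them Csf3r, the receptor for granulocyte colony stimulating factor (log2 fold changes -8.79 and -7.22). Cebpb, another C/EBP factor of macrophages and acute phase hepatocytes, was at 764.5 CPM in liver stroma and 100.1 CPM in liver tumour cells. Prox1 was at 2.94, 3.72, 1.91 and 1.71 CPM in liver stroma and at 6.69, 6.42, 3.05 and 4.65 CPM in peritoneal stroma, 4.19-fold and 7.16-fold above the tumour cells (-2.07, SE 0.42, and -2.84, SE 0.36). Onecut1 had 0 to 10 counts per stromal library and was not tested.

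Between the stromal fractions 4 of the 6 tested members were called, where 33.4% of 14755 genes were. Higher in liver stroma were Hnf4a, at 27.7, 32.6, 28.3 and 33.6 against 17.7, 8.76, 18.3 and 20.3 CPM (log2 fold change 0.86, adjusted p = 0.0139), Foxa2, at 13.0 against 6.16 CPM (1.02, adjusted p = 0.0212), and Sox9, at 71.3 against 46.4 CPM (0.57, adjusted p = 0.0419). Krt19 was also higher there, at 315.6 against 168.5 CPM (0.86, adjusted p = 0.00623). Foxa1 had a log2 fold change of 0.88 with an adjusted p of 0.0551, and with the mouse as a block 0.85 with 0.0193. Prox1 was lower in liver stroma (-1.06, SE 0.33, adjusted p = 0.0317), and 5 of the 8 omissions of a library took its call away (adjusted p 0.0522 to 0.0815), as did 6 of 8 for Sox9 (0.0725 to 0.115) and that of liver stromal replicate 4 for Foxa2 (0.0568). Lymphatic markers moved beside Prox1: of the 5 tested of 6, Mmrn1, Pdpn and Reln were lower in liver stroma and Flt4 was higher. Their sums were 133 to 296 CPM in liver and 157 to 362 CPM in peritoneal stroma, and Ccl21a was at 0 in both. The sums join unlike markers: Flt4 averaged 135 CPM in liver and 37.8 CPM in peritoneal stroma. Mmrn1 averaged 0.241 and 18.4 CPM, and Pdpn 14.0 and 121 CPM. Hepatocyte genes moved beside Hnf4a and Foxa2: 14 of 16 tested were higher in liver stroma. They were led by Fga and Alb, which were at 19.9 and 55.8 CPM there. Fga was at 0 in all peritoneal stromal libraries, so it passed the filter only through liver stroma and could only come out higher. Without Trf and Apob the hepatocyte genes summed to 262 to 636 CPM in liver and 107 to 194 CPM in peritoneal stroma. What part these cells had in the differences of the members was not tested. In bulk samples more cells of a type and more RNA per cell cannot be told apart.

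Hnf4a thus differed in opposite directions between the sites in tumour and stromal cells, and the difference itself was tested. The site difference (liver minus peritoneal) in tumour cells minus that in stromal cells was called for 2 of the 7 tested members, where 14.3% of 15331 genes were called and the median over all genes was -0.12. It was -1.45 on the log2 scale for Hnf4a (SE 0.26, adjusted p = 0.00200) and -1.23 for Foxa2 (SE 0.34, adjusted p = 0.0232). Without mouse 1, 3 or 4 the adjusted p of Foxa2 was 0.0504, 0.117 or 0.114. For Foxa1 the value was -0.86 (adjusted p = 0.0863), for Sox9 -0.55 (0.200) and for Cebpa -0.02 (0.959).

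Over all groups, the order of Hnf4a levels was BMEL WT, RasHIGH, RasLOW, peritoneal tumour, liver tumour, liver stroma and peritoneal stroma. No call was made among its first 3 places or between RasHIGH and peritoneal tumour. The order of Sox9 was liver tumour, peritoneal tumour, RasHIGH, BMEL WT, RasLOW, liver stroma and peritoneal stroma, with no call between both tumours, between RasHIGH and RasLOW or between BMEL WT and RasLOW. For Foxa1 it was RasHIGH, liver tumour, peritoneal tumour, RasLOW, BMEL WT and the stromal groups. No call was made for Foxa1 between RasHIGH and RasLOW, RasHIGH and liver tumour, both tumours, RasLOW and BMEL WT, or both stromal groups. RasLOW and BMEL WT were not tested against tumour cells, and no culture was tested against stroma, so those steps of the orders rest on means only.

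Genes with the most similar profile were sought by the mean absolute difference of centred log2(CPM + 1) values over the 25 libraries, for members whose group means spanned more than 1. Nearest to Hnf4a were Tspan8, a tetraspanin (difference 0.170), Ccnd1, encoding cyclin D1 (0.230), and Mlph (0.231). Nearest to Foxa2 were Krt19 (0.189), the matrix protein gene Npnt (0.207) and the integrin gene Itga3 (0.228). Foxa1 was nearest to Arhgef5 (0.213), Inava (0.230) and Mtcl1 (0.235), and Sox9 to Srd5a1, a steroid reductase (0.284), Map2k6, a MAP kinase kinase (0.291), and Fam83b (0.295). Mean levels of Srd5a1 were 31.9 CPM for BMEL WT, 39.2 CPM for RasLOW, 71.9 CPM for RasHIGH, 187 CPM in liver and 189 CPM in peritoneal tumour cells. Cebpa was nearest to Plod1 (0.309), B3gnt8 (0.316) and Txndc16 (0.320), all of them high in stroma, and Prox1 to Cox6b2 (0.340), Lyrm7 (0.345) and Tmem144 (0.351), genes of low level. With a pseudocount of 0.1 in place of 1, 2 of the 3 genes nearest to Hnf4a, Foxa2 and Sox9 were kept, 1 of 3 for Foxa1 and Cebpa and 0 of 3 for Prox1. Foxa3 and Onecut1 spanned 0.691 and 0.247 and were left out.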

How the data were processed

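RNA was measured in 25 libraries of 7 groups, and samples were grouped by the submitters' labels. Per the paper's methods the authors made mRNA libraries, sequenced them on an Illumina HiSeq and aligned the reads to mm9 with TopHat2. The authors deposited raw counts of reads per gene, not normalized; the counting program, annotation and strand setting are not given in the sources used here. The submitters' processing notes also name Bowtie 0.12.2 and FastQC, with no role, and builds that conflict with mm9 (mm8 and mm10). Positions on mm9 and exon lengths came from GENCODE M1, and promoter windows from RefSeq on GRCm38.p6, and the builds were not mixed.

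In R 4.3.3 with edgeR 4.0.16, genes were filtered by filterByExpr (minimum count 10) in the libraries of the 2 groups compared, scaled by TMM and compared by the quasi-likelihood F-test, two-sided, with p-values adjusted by Benjamini and Hochberg's method across every gene in the fit. CPM levels used TMM factors over all 25 libraries. RPKM is that CPM per kilobase of exon. Intervals use the total degrees of freedom of the quasi-likelihood fit, prior plus residual, and the 95% level. All libraries differed in their counts, and replicates correlated at 0.984 to 0.998. The scripts were tested on simulated data.

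The members and lists were chosen with earlier results of these data known. Besides the members, Alb, Afp, Krt19 and Spp1 were to be named, with up to 2 called genes each way per list and comparison, those of largest log2 fold change with at least 1 CPM in a group, and the 3 genes most like a member. Other genes of the lists given with values, among them Pecam1, Igf2 and Dlk1, were named after their values were seen. Spp1 was not called among the cultures. Some genes of the lists are not reported here.

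Same-numbered cultures share only a number. Libraries of 1 mouse come from the same animal; the mean correlation of their deviations was -0.04 between tumour sites, 0.20 between stromal sites, and 0.23 and 0.20 between tumour and stroma. Alternatives were DESeq2 1.42.0, the exact test, RLE factors, no filter, all 25 libraries in one fit, the study's thresholds (log2 fold change above 1.5 with unadjusted p under 0.01 in cultures, above 1 with 0.05 in sorted cells), a block by number or mouse, leaving out each library and, for the most similar genes, a pseudocount of 0.1. Lane as a term and a block of neighbouring library identifiers were added after seeing the data. Python 3.11.15 and matplotlib 3.10.9 drew the figures.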

Additional observations from a re-analysis of the deposited data

Results flagged for a closer look

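Foxa2 in peritoneal stromal replicate 2 was 2.53 CPM, far from the other libraries of its group at 6.91 to 7.72 CPM. The same library had the lowest Hnf4a (8.76 CPM), Sox9 and Cebpa of its group. Onecut1 in peritoneal stromal replicate 3 was 0.0693 CPM, which rests on 2 counts where the other 3 libraries had 0. These were the 2 libraries found to lie apart among 32 groups of 4 values, and chance gives about 1 in 20.

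The site difference in tumour cells differed from that in stromal cells for Hnf4a, by -1.45 on the log2 scale (-0.51 among tumour libraries against 0.86 among stromal ones), and for Foxa2, by -1.23 (-0.14 and 1.02), both by the test of the difference itself. Krt19, which had a log2 site difference of -0.06 among tumour libraries against 0.86 among stromal ones, moved beside them.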

How the results depend on the processing

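Of 908 log2 values under the alternatives, 799 kept their direction and side of the threshold, 54 lost it, 14 gained it and 41 turned direction; the cause was not tested. The members called came to 0 with the lane as a term and 0 to 1 on leaving out a library for RasLOW against BMEL WT. For RasHIGH against BMEL WT they were 1 with the study's thresholds, 0 with the lane and 1 to 3 on leaving out a library. For RasHIGH against RasLOW they were 2 with DESeq2, 1 with all libraries and 2 with the identifier block. For liver against peritoneal tumour cells they were 0 with all libraries, the study's thresholds, the mouse block or the lane, and 0 to 1 on leaving out a library. For the stromal sites they were 2 with the study's thresholds and 1 to 5, for liver tumour against stroma 6 to 7, for liver tumour against RasHIGH 1 with the study's thresholds and 1 to 3, and for peritoneal tumour against RasHIGH 1 with no filter, all libraries or the study's thresholds and 0 to 3. All genes called in RasLOW against BMEL WT (734) became 1622 with DESeq2, 1352 with the exact test, 2440 with all libraries, 295 with the replicate block, 26 with the lane and 148 to 2340 without a library. In RasHIGH against BMEL WT (2789) they became 4347 with all libraries, 1190 with the study's thresholds, 545 with the lane and 1517 to 3896. In RasHIGH against RasLOW (9) they became 419 with DESeq2, 331 with the exact test, 77 with no filter, 917 with all libraries, 253 with the study's thresholds, 0 with the replicate block, 1514 with the identifier block and 0 to 16. Between tumour sites (419) they became 1152 with DESeq2, 945 with the exact test, 102 with the mouse block, 195 with the lane and 41 to 884. The study's thresholds gave 2107 of 4926 between stromal sites, 6437 of 11376 and 6377 of 11168 for tumour against stroma in liver and peritoneum, and 3050 of 5851 and 2571 of 4846 for tumour against RasHIGH. Values that turned were not called: Cebpa in RasLOW -0.18 and Foxa3 in RasHIGH -0.30 with the lane, Prox1 between Ras populations 0.0087 with no filter, 0.0038 with all libraries and 0.069 with the identifier block, Foxa3 between tumour sites 0.051 with the block, Foxa3 in peritoneal tumour against RasHIGH 0.019 with DESeq2 and 0.015 with RLE, and the site interaction of Cebpa 0.048 with no filter. Without a library, ranges across 0 were -0.10 to 0.93 for Cebpa and -0.27 to 0.094 for Sox9 in RasLOW, -0.14 to 0.18 for Foxa2, -0.31 to 0.51 for Foxa3 and -0.99 to 0.20 for Cebpa in RasHIGH, and -0.025 to 0.20 for Hnf4a, -0.30 to 0.020 for Foxa2 and -0.61 to 0.38 for Prox1 between Ras populations. They were -0.35 to 0.44 for Foxa3, -0.19 to 0.055 for Cebpa, -0.64 to 0.039 for Prox1 and -0.018 to 0.20 for Sox9 between tumour sites, -0.077 to 0.25 for Foxa2, -0.43 to 0.29 for Foxa3 and -0.37 to 0.73 for Prox1 in liver tumour against RasHIGH, -0.49 to 0.38 for Foxa3 and -0.13 to 0.88 for Prox1 in peritoneal tumour against RasHIGH, and -0.16 to 0.11 for the interaction of Cebpa. That of Foxa2 ranged from -1.33 to -1.10. The mouse block changed the call of Hnf4a between tumour sites (-0.50) and of Foxa1 between stromal sites (0.85) and of no other member. Same-numbered cultures had mean correlations of -0.13, 0.06 and -0.30 in their deviations and share only a number. Depth limits Onecut1 and Foxa3, which rest on 0 to 57 counts a library.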

Other observations

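Of 8 hepatoblast genes tested in liver, 3 were higher in tumour cells than in stroma, among them Hmga2 (1728 against 250.9 CPM) and Afp (9.67 against 1.51 CPM), and 5 were lower. The lower ones included H19, an imprinted fetal RNA, at 0.543 CPM in liver tumour cells and 53.2 CPM in liver stroma, and Gpc3, a glypican used as a marker of liver cancer, at 0.0302 and 4.65 CPM. In the peritoneum Gpc3 was at 0.600 CPM in tumour cells and 70.3 CPM in stroma. Igf2 and Dlk1 were under 1 CPM in every tumour cell library.

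Cdh5, the cadherin of endothelial cells, averaged 0.0723 CPM over the BMEL WT, 1.22 CPM over the RasLOW and 8.56 CPM over the RasHIGH cultures (RasHIGH against BMEL WT, log2 fold change 6.78, SE 0.64, adjusted p = 0.000855). It reached 126 CPM in liver and 140 CPM in peritoneal tumour cells. Pecam1, another endothelial marker, was at 0 in the RasHIGH cultures and at 1.96 and 6.54 CPM in the tumour cells.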
